A study of Mus musculus with 14 samples.

Results

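The genes described here are 10 transcription factor genes known from blood stem and progenitor cells: Mecom, Prdm16, Hlf, Erg, Runx1, Runx2, Runx3, Sox4, Hhex and Etv6. They were taken by symbol from both deposited count tables, and all 10 of the 55367 gene symbols in each table were found. The RNA was from primary mouse marrow cultures selected against mature lineage markers, labelled wild-type and grown with SCF, IL6 and IL3. The first comparison sets 3 samples transduced with SETBP1-D868N against 3 that got a luciferase lentivirus. SETBP1-D868N is a mutant form, known from myeloid leukemia, of a nuclear protein. The second uses 8 samples that all carried SETBP1-D868N: 4 were treated for 4 days with 2.5 µM PF-9363, which inhibits MYST histone acetyltransferases, and 4 with its solvent, DMSO. The mutant came from a lentivirus added to a mixed primary culture, so it is an added copy and not a change of the cells' own gene, and the labels do not say whether the samples of a group came from separate cultures or animals. P-values therefore measure the spread between these libraries, which may be technical.

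Mecom and Prdm16 are related zinc finger genes whose long protein forms carry a PR domain, and both are needed for maintenance of blood stem cells. Hlf is a leucine zipper factor whose expression marks the most immature cells. Erg and Etv6 belong to the ETS family, and Etv6 acts mostly as a repressor. Runx1, Runx2 and Runx3 share the Runt DNA-binding domain and work with the common partner Cbfb. Runx1 is required for the emergence of blood stem cells, Runx2 is best known for bone formation, and Runx3 for T lymphocytes. Sox4 is a high-mobility-group factor of progenitors and Hhex is a homeobox factor of early blood and endothelium. Several of these genes are rearranged or overexpressed in leukemia.

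Within 2 families the annotated start regions carry stretches in common. RefSeq windows of the GRCm38.p6 build, from 250 bases before to 50 bases after an annotated start, were found for all 10 genes (15 windows). They are shown because the members of each family are set against each other in the results below. The longest run shared by a window of Runx1, of Runx2 and of Runx3 had 18 bases and is in capitals in these 30-base segments, written 5′ to 3′ on the strand of each gene.

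Runx1: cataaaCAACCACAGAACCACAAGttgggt

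Runx2: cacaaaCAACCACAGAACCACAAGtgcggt

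Runx3: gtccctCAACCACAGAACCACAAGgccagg

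The segments lie at chr16:92826025-92826054 (minus strand), chr17:44814583-44814612 (minus strand) and chr4:135120503-135120532 (plus strand). The shared run spans bases 27 to 44 after an annotated start of Runx1 and bases 22 to 39 after that of Runx2. For Runx3 it spans bases -136 to -119 before an annotated start. Runx1 and Runx3 each have another window here, which does not hold the run, and the starts in use are not known. It holds 2 copies of ACCACA, the reverse complement of the RUNX site TGTGGT. The pair of ACCACA copies with 2 bases between them, a pattern chosen after these sequences were seen, occurred on either strand in 7 of 32851 windows of all genes (0.0213%). Those windows belong to Runx1, Runx2, Runx3, Gm12236, Gm15462, Gm16225 and Olfr24, and the window of Gm16225 overlaps that of Runx3. The single site TGTGGT was found, on either strand, in 16.8% of all windows. It was in 3 of the 15 windows here, the same windows of Runx1, Runx2 and Runx3 that hold the shared run.

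Mecom and Prdm16 shared a run of 24 bases, again in capitals, just after 1 annotated start of each. No window of another gene held it.

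Mecom: tctaacGCGCATGTGCGAAGGTGTCCAAAC

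Prdm16: tgtGCGCATGTGCGAAGGTGTCCAAACtga

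These segments lie at chr3:30509710-30509739 and chr4:154636838-154636867, both on the minus strand. The 250 bases before the same starts differed in composition. Those of Mecom held 50.8% G or C and 14 CG pairs, and those of Prdm16 62.4% and 22. The median over all windows was 52.4% and 6 CG pairs. The capitals below mark CATCTG, an E-box, which was present in 17.2% of all windows on either strand.

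Mecom: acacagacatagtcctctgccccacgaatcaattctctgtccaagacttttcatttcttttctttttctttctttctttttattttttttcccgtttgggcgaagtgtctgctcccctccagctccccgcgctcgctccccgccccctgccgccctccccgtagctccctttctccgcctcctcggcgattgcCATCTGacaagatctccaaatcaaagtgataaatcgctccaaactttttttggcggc

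Prdm16: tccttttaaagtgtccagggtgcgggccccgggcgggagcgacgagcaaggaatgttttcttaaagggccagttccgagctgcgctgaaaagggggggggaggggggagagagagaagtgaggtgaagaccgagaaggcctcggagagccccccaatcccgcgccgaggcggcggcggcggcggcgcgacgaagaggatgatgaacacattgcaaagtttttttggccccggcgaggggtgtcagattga

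These upstream stretches are chr3:30509760-30510009 and chr4:154636874-154637123. Further sites were searched on either strand. The ETS site GGAAGT was in 23.8% of all windows and in 0 of the 15 windows of the 10 genes. The factor GATA's site, read as AGATAA, was in 11.2% of all windows and in 1 of the 15, a window of Erg. The site TGATTNAT, shared by HOX and MEIS factors, was in 3.22% of all windows and in 0 of the 15. The SOX site ACAAAG was in 18.7% and the HLF site TTACGTAA in 0.119% of all windows, and both were in 0 of the 15. A match is a string of letters and not evidence of binding.

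Total counts ran from 60147266 to 68730322 per library in the first experiment. They ran from 7083731 to 10359093 in the PF-9363 experiment. Levels are given as CPM, the counts of a gene per 1000000 counts of its library. A gene at 0 counts could be at up to 0.0436 to 0.0499 CPM in the first experiment and 0.290 to 0.424 CPM in the other. These limits cover counting error only. All CPM below are scaled by the trimmed mean of M-values (TMM), which adjusts for differences in composition between libraries if most genes are unchanged. A difference was called at an adjusted p under 0.05 in edgeR's quasi-likelihood test over all genes of a table. With PF-9363, 76.0% of the genes tested were called, so that condition may not hold in the second experiment. The cells are labelled lineage-negative, but markers of maturing cells were present in every library. The summed level of 10 neutrophil markers was 16809 to 26208 CPM over all libraries, that of 11 mast cell markers 1137 to 5734 CPM and that of 10 macrophage and monocyte markers 1525 to 11025 CPM. The mast cell list also holds Mcpt8, a protease known from basophils. Markers of erythroid cells (9 genes) summed to 4.17 to 21.1 CPM and those of T cells (6 genes) to 0 to 1.58 CPM. Luciferase library 1 stood apart from the other 2 of its group, with a chi-square per degree of freedom of 27.0 and 27.7 against 2.28 between those 2. Without it, 6 of the 7 calls reported below for SETBP1-D868N held, the exception being Prdm16.

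Mecom rose with SETBP1-D868N and rose with PF-9363 as well. In the first experiment it was at 1.37, 1.24 and 1.13 CPM in luciferase libraries 1 to 3 and at 2.48, 2.28 and 3.15 CPM in SETBP1-D868N libraries 1 to 3. Every SETBP1-D868N library lay above every luciferase library. The log2 fold change was 1.08 (SE 0.155, edgeR adjusted p 1.20e-04), or 2.11-fold, which was larger in size than for 96.5% of the genes tested. Counts of Mecom were few with DMSO, at 11, 12, 13 and 11 per library, or 1.09, 1.2, 1.22 and 0.998 CPM. The PF-9363 libraries held 30, 20, 13 and 22 counts, or 3.09, 2.58, 2.02 and 2.39 CPM, again with no overlap. The log2 fold change was 1.17 (SE 0.322, edgeR adjusted p 0.00181), with a 95% interval of 0.509 to 1.83. The gene (ENSMUSG00000027684.16, chr3:29951296-30548008, minus strand) has 11 annotated coding transcripts, and the counts do not separate the long form from the shorter EVI1 form that lacks the PR domain.

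Prdm16 rose a little with SETBP1-D868N and showed the largest fall of the 10 genes with PF-9363. It was at 2.37, 2.63 and 2.68 CPM with luciferase and at 3.34, 3.38 and 3.06 CPM with SETBP1-D868N, and its log2 fold change was 0.35 (SE 0.107, edgeR adjusted p 0.0177). That call was lost without luciferase library 1 (0.30, adjusted p 0.0608) or without SETBP1-D868N library 2 (0.32, adjusted p 0.0551). With DMSO it was at 4.56, 5.59, 4.96 and 5.17 CPM, from 46 to 57 counts. With PF-9363 it was at 1.03, 1.16, 1.09 and 0.434 CPM, from 10, 9, 7 and 4 counts. The highest PF-9363 library thus lay well below the lowest DMSO library, and the log2 fold change was -2.46 (SE 0.304, edgeR adjusted p 2.68e-08), or 5.51-fold lower. Prdm16 spans chr4:154316125-154636873 on the minus strand.

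The order of these related genes differed between the groups. Per exonic length, as CPM per kilobase of exon (RPKM), Prdm16 lay above Mecom in the luciferase libraries (0.274 ± 0.0179 against 0.1 ± 0.00970, SD, n = 3) and in the SETBP1-D868N libraries (0.350 ± 0.0187 against 0.212 ± 0.0366, n = 3). It also lay above Mecom with DMSO, at 0.544 ± 0.0459 against 0.0906 ± 0.00820 RPKM (n = 4). With PF-9363 the levels were 0.0996 ± 0.0358 RPKM for Prdm16 and 0.203 ± 0.0358 for Mecom (n = 4). In each of the 4 groups the ranges of the genes did not overlap in RPKM. Without division by length they overlapped with SETBP1-D868N, where Mecom reached 3.15 CPM and Prdm16 went down to 3.06 CPM. The lengths merge all annotated exons, and the transcripts in use are not known.

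**Figure D1:**
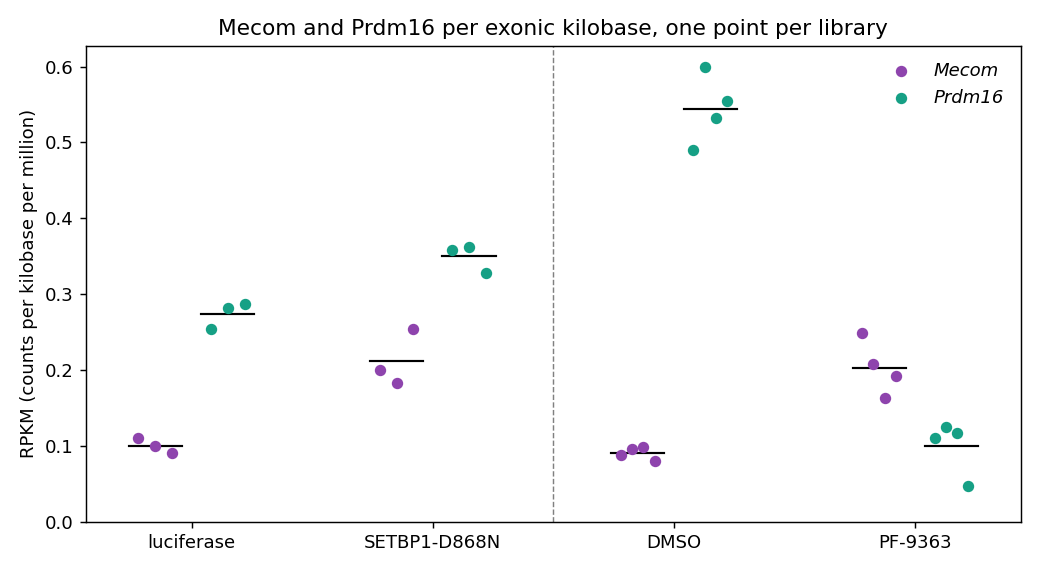
Level of Mecom and Prdm16 per kilobase of exon (RPKM, vertical axis) in the 4 groups (horizontal axis). Points are libraries (3 per group on the left of the dashed line, 4 on the right), and black lines are means; Prdm16 lies above Mecom in the first 3 groups and below it with PF-9363, at 0.0996 against 0.203 RPKM.

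Of the genes called with SETBP1-D868N, Hlf lost its call in 7 of 14 alternative analyses. Its level was 9.86, 9.43 and 9.0 CPM with luciferase and 10.7, 10.7 and 10.5 CPM with SETBP1-D868N, so that the groups did not overlap. The log2 fold change was 0.17 (SE 0.0585, edgeR adjusted p 0.0300). The call was lost with DESeq2 (adjusted p 0.0843), with the replicate number as a block (0.0613), and without luciferase library 2 (0.0798) or 3 (0.126) or SETBP1-D868N library 1 (0.0697), 2 (0.0870) or 3 (0.0566). Hlf was at 3.47, 2.79, 3.37 and 4.72 CPM with DMSO and at 4.02, 2.71, 3.42 and 3.04 CPM with PF-9363. These overlapped, and the log2 fold change of -0.12 was not called (SE 0.251, edgeR adjusted p 0.670). The 95% interval of -0.634 to 0.393 leaves room for changes of either sign. Hlf lies at chr11:90336536-90390895 on the minus strand.

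The ETS factors Erg and Etv6 rose slightly with SETBP1-D868N and fell with PF-9363. Erg was at 33.9, 35.3 and 35.1 CPM with luciferase and at 41.8, 40.9 and 39.6 CPM with SETBP1-D868N, with no overlap. Its log2 fold change was 0.23 (SE 0.0371, edgeR adjusted p 2.89e-04). With DMSO it was at 58.7, 52.2, 45.5 and 66.1 CPM, with library 4 highest and library 3 lowest. PF-9363 libraries held 34.1, 30.7, 24.6 and 25.8 CPM, and the highest of them was still below the lowest DMSO library. The log2 fold change was -0.94 (SE 0.117, edgeR adjusted p 3.08e-07), or 1.92-fold lower. Erg, at chr16:95359169-95586593 on the minus strand, is also an endothelial factor. Endothelial markers other than Pecam1, which blood cells express too (Cdh5, Kdr, Emcn and Tie1), summed to 3.07 to 4.05 CPM in the first experiment. In the second they summed to 0.412 to 1.09 CPM, with Emcn at 0 in all libraries. Of 5 markers with Pecam1, 3 were tested with SETBP1-D868N, with 1 called higher and 0 lower. Tie1 was at 2.01 to 2.49 CPM with luciferase and 2.51 to 3.15 CPM with SETBP1-D868N, and Kdr at 0.864 to 0.968 and 0.443 to 0.753 CPM. The part of such cells in the Erg result was not tested.

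Etv6 was the most abundant of the 10 genes per exonic length in all 4 groups. It was at 184, 182 and 184 CPM with luciferase and at 199, 203 and 210 CPM with SETBP1-D868N. The luciferase libraries differed from each other by far less than from the others, and the log2 fold change of 0.15 was called (SE 0.0274, edgeR adjusted p 6.10e-04). With DMSO the libraries held 145, 134, 128 and 133 CPM. With PF-9363 they held 94.7, 90.1, 89.5 and 86.0 CPM, again with no overlap, and the log2 fold change was -0.58 (SE 0.0651, edgeR adjusted p 3.85e-09), or 1.5-fold lower. Etv6 lies at chr6:134035700-134270158 on the plus strand.

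Sox4 rose with SETBP1-D868N and fell with PF-9363. Luciferase libraries held 21.7, 20.8 and 21 CPM and SETBP1-D868N libraries 33.0, 28.9 and 30.8 CPM. The groups were clearly apart, and the log2 fold change was 0.54 (SE 0.0511, edgeR adjusted p 4.24e-06), or 1.46-fold. In the second experiment Sox4 was at 21, 17.1, 20.2 and 20.2 CPM with DMSO and at 5.56, 6.06, 9.65 and 9.87 CPM with PF-9363. PF-9363 libraries 1 and 2 lay below libraries 3 and 4, and all 4 lay below the DMSO libraries. The log2 fold change was -1.35 (SE 0.159, edgeR adjusted p 1.59e-08), or 2.54-fold lower. Sox4 is a gene of a single exon (chr13:28948919-28953713, minus strand), and the noncoding gene Gm26735 on the opposite strand covers 54.6% of it. Without a stated use of strand in the counting, reads of the genes cannot be told apart, and Gm26735 is not among the gene symbols of the deposited counts.

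Of the RUNX genes, Runx2 alone was called with SETBP1-D868N and Runx1 alone with PF-9363. Runx2 was at 26.9, 23.8 and 26.1 CPM with luciferase and at 34.7, 39.0 and 39.1 CPM with SETBP1-D868N, with no overlap. Its log2 fold change was 0.56 (SE 0.0593, edgeR adjusted p 2.17e-05), or 1.47-fold. With DMSO it was at 58.5, 58.4, 49.5 and 57.2 CPM and with PF-9363 at 58.1, 61.2, 54.0 and 53.3 CPM. Those ranges overlapped and the log2 fold change was 0.020 (SE 0.0801, edgeR adjusted p 0.833), with a 95% interval of -0.144 to 0.184. The gene spans chr17:44495987-44814797 on the minus strand, and its antisense gene Runx2os1 covers 5.87% of its exons. Markers of osteoblasts and stroma (7 genes) summed to 0.934 to 5.12 CPM over all libraries. Of these 7, 2 were tested with SETBP1-D868N, and 1 was called higher and 0 lower. Col1a1, the most abundant, was at 3.66 to 4.41 CPM with luciferase and 1.81 to 3.34 CPM with SETBP1-D868N, and Col1a2 at 0.505 to 0.536 and 0.642 to 1.10 CPM. Ibsp was at 0 counts in every library, and Sp7, a factor that acts with Runx2 in bone, had at most 2 counts. The part of such cells in the Runx2 result was not tested.

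Runx1 was at 253, 247 and 243 CPM with luciferase and at 233, 247 and 258 CPM with SETBP1-D868N. The groups overlapped fully, and the log2 fold change was -0.0088 (SE 0.0358, edgeR adjusted p 0.863), with a 95% interval of -0.0873 to 0.0697. In the second experiment it was at 119, 139, 120 and 133 CPM with DMSO and at 153, 149, 151 and 156 CPM with PF-9363. All PF-9363 libraries were above all DMSO libraries and close to each other. The log2 fold change of 0.25 was called (SE 0.0639, edgeR adjusted p 9.07e-04), but it was 0.019 (adjusted p 0.796) under scaling by library size alone, a setting that moved the median of all genes by -0.23. Runx1 lies at chr16:92601466-92826149 on the minus strand.

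Runx3 was called in neither comparison. It was at 97.1, 98.3 and 96.8 CPM with luciferase and at 97.7, 92.1 and 98.7 CPM with SETBP1-D868N, and its log2 fold change was -0.018 (SE 0.0317, edgeR adjusted p 0.681, 95% interval -0.0870 to 0.0515). With DMSO it was at 55.1, 51.4, 56.8 and 61.3 CPM and with PF-9363 at 51.7, 53.0, 56.7 and 50.5 CPM. The ranges overlapped, and the log2 fold change was -0.088 (SE 0.0791, edgeR adjusted p 0.317, 95% interval -0.250 to 0.0744). Under library-size scaling it was -0.317 and passed (adjusted p 7.00e-04). Of the 6 T cell markers, Cd3e, Cd3g and Cd8a were at 0 counts in all DMSO and PF-9363 libraries. Cd3d, Cd4 and Trac had at most 2, 1 and 1 counts with DMSO and 11, 2 and 2 with PF-9363. In the first experiment all 6 had some counts, and Trac had up to 47 with luciferase and 42 with SETBP1-D868N. Runx3 lies at chr4:135120652-135177990 on the plus strand.

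Because shares within a library do not depend on scaling between libraries, the makeup of the RUNX family was compared as well, with counts divided by exonic length. Runx2 made up 6.74% ± 0.407 (SD, n = 3) of the summed RUNX level with luciferase and 9.68% ± 0.506 with SETBP1-D868N (n = 3, exact two-sided permutation p 0.1). Runx1 went from 47.9% ± 0.405 to 46.6% ± 1.18 (exact permutation p 0.1) and Runx3 from 45.3% ± 0.610 to 43.8% ± 1.66 (exact permutation p 0.300). For Runx1 and Runx2 the groups did not overlap, but 3 against 3 libraries cannot give a p below 0.1, so no share could pass in this experiment. With Runx2 left out of the sum, the Runx1 share moved the other way, by 0.146 percentage points.

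In the second experiment Runx1 made up 37.7% ± 2.00 of the RUNX sum with DMSO and 42.7% ± 1.39 with PF-9363 (n = 4 each). The Runx1 share was higher in every PF-9363 library (41.4% to 44.5%) than in every DMSO library (36% to 40.6%), with an exact two-sided permutation p of 0.0286, the smallest that 4 against 4 allows. Runx3 made up 39.8% ± 2.60 and 35.7% ± 1.38 (exact permutation p 0.0571) and Runx2 22.4% ± 1.45 and 21.6% ± 1.32 (exact permutation p 0.400). Adjusted over these 6 comparisons of shares (Benjamini-Hochberg), the p of Runx1 was 0.15 with PF-9363, and none of the 6 passed. The sum of the RUNX genes was 43.0 ± 0.473 RPKM with luciferase and 44.0 ± 1.5 with SETBP1-D868N (n = 3, exact permutation p 0.500). It was 28.2 ± 1.24 RPKM with DMSO and 29.7 ± 0.417 with PF-9363 (n = 4, exact permutation p 0.0857). The common partner Cbfb was called higher with SETBP1-D868N, at 222 ± 2.02 and 237 ± 0.500 CPM (log2 fold change 0.093, SE 0.0235, edgeR adjusted p 0.00612). With PF-9363 it was not called, at 156 ± 4.47 CPM with DMSO and 156 ± 3.15 with PF-9363.

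**Figure D2:**
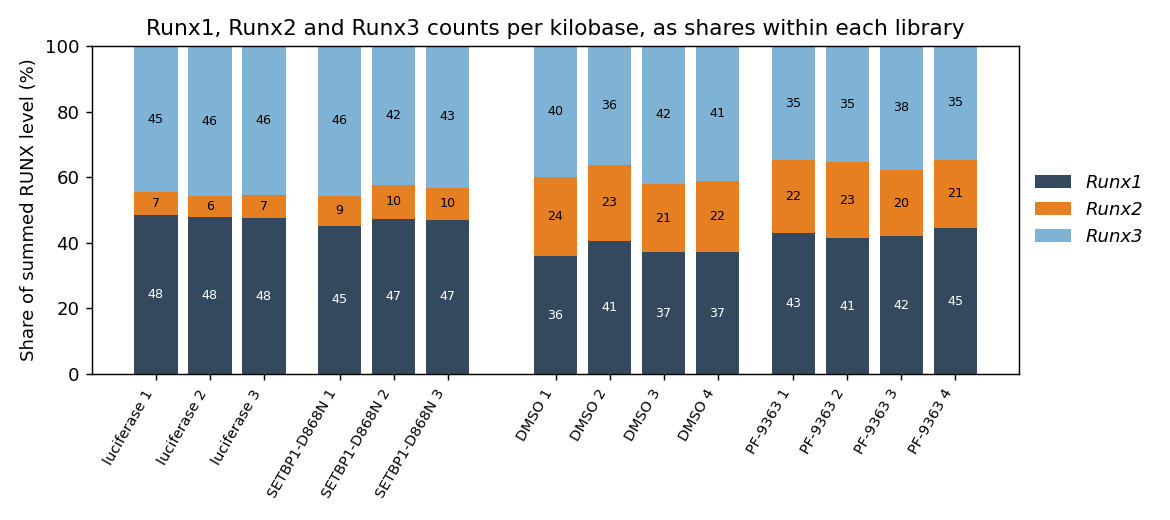
Shares of Runx1, Runx2 and Runx3 (stacked bars, percent of their summed counts per kilobase of exon) in each of the 14 libraries. The Runx2 share is larger in every SETBP1-D868N library than in every luciferase library, and the Runx1 share is larger in every PF-9363 library than in every DMSO library.

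Hhex was called in neither comparison. It was at 58.6, 62.3 and 60.2 CPM with luciferase and at 62.1, 62.2 and 61.0 CPM with SETBP1-D868N, which overlapped (log2 fold change 0.033, SE 0.0321, edgeR adjusted p 0.438). With DMSO it was at 56.5, 53.2, 53.7 and 53.7 CPM and with PF-9363 at 57.5, 62.4, 57.1 and 64.0 CPM. Here the groups did not overlap, but the log2 fold change of 0.15 missed the threshold (SE 0.0750, edgeR adjusted p 0.0679). It passed with DESeq2 (0.178, adjusted p 0.0404), with RLE size factors (0.177, 0.0343) or without PF-9363 library 3 (0.186, 0.0433), and had the opposite sign under library-size scaling (-0.0787). Hhex lies at chr19:37434810-37440731 on the plus strand.

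**Figure D3:**
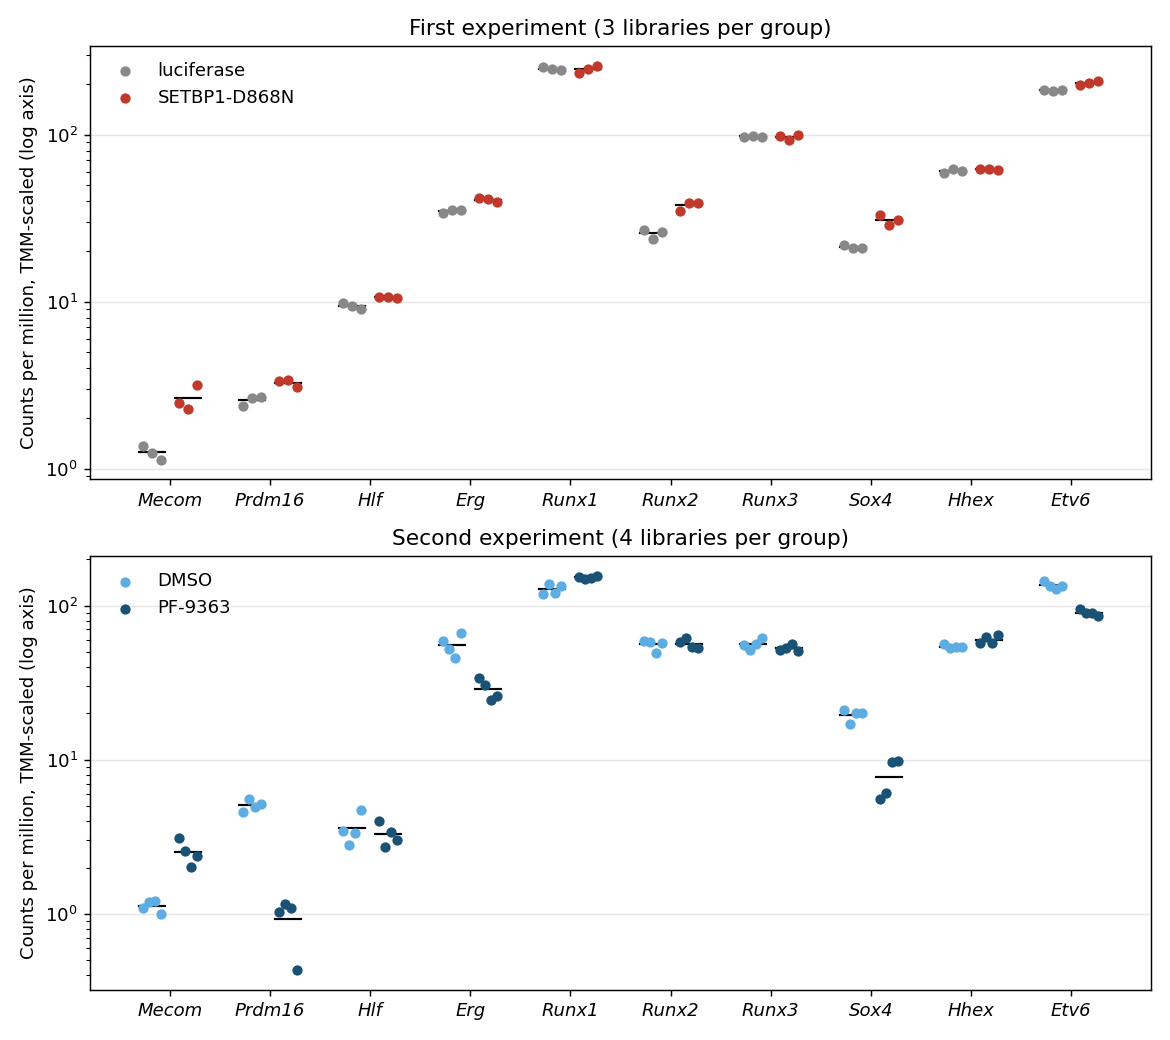
TMM-scaled CPM on a log axis for the 10 genes (horizontal axis) in the first experiment (upper panel, 3 libraries per group) and the second (lower panel, 4 per group); points are libraries and black lines are group means. Groups are apart for Mecom in both panels, in the same direction, and for Prdm16, Erg, Sox4 and Etv6 in opposite directions.

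Counted together, 7 of the 10 genes were called higher with SETBP1-D868N (Mecom, Prdm16, Hlf, Erg, Runx2, Sox4 and Etv6) and 0 were called lower, where 24.5% of the 15794 genes tested were called higher and 22.7% lower (47.2% in all). The same 7 genes had groups that did not overlap, against 56.7% of all genes tested. Their changes were mostly small: the median log2 fold change of the 10 genes was 0.20, beside 0.0043 over all genes, and Mecom alone rose at least 2-fold, as 1.34% of all genes did. All 10 passed the expression filter in both experiments, so no member went uncounted. With PF-9363, 2 were called higher (Mecom and Runx1) and 4 lower (Prdm16, Erg, Sox4 and Etv6), where 36.6% and 39.4% of the 13456 genes tested were called (76.0% in all). Mecom rose at least 2-fold, as did 15.8% of all genes, and Prdm16 and Sox4 fell at least 2-fold, as did 18.1%. The median log2 fold change was -0.10, beside -0.038 over all genes. Groups did not overlap for 7 of the 10, against 70.3% of all genes, so these counts are near the background. Under library-size scaling the split was 1 higher and 6 lower, with Runx2 and Runx3 added to the lower genes.

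**Figure D4:**
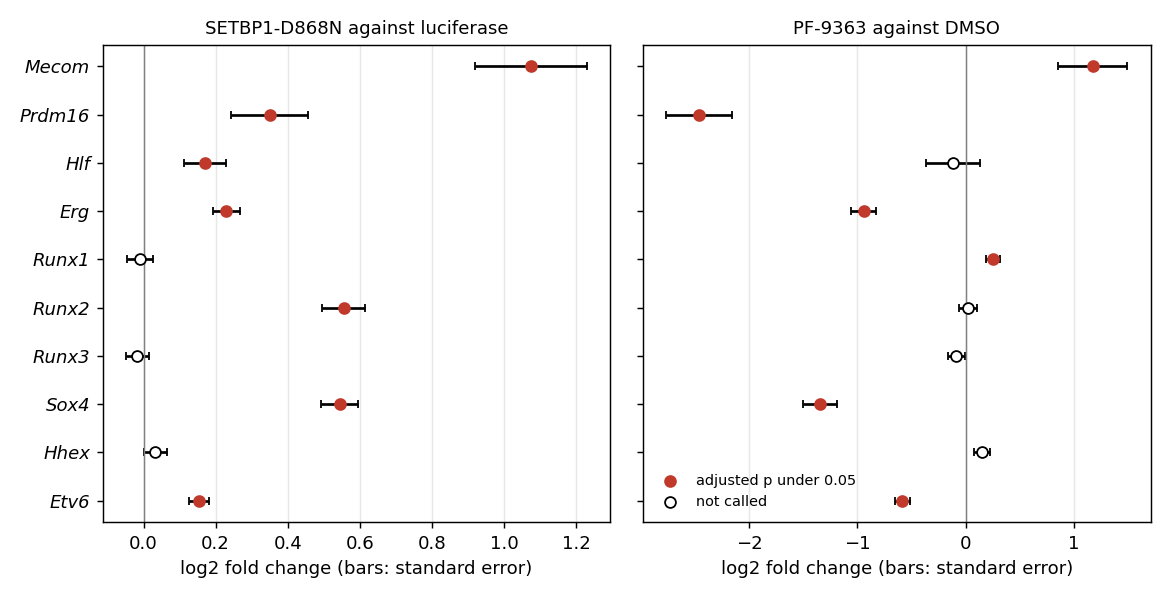
Log2 fold change (horizontal axis, bars are the standard error) of each of the 10 genes with SETBP1-D868N against luciferase (left, n = 3 per group) and with PF-9363 against DMSO (right, n = 4 per group), with a different scale in each panel. Filled points passed an edgeR adjusted p of 0.05, namely 7 genes on the left, all to the right of 0, and 6 on the right, of which Mecom and Runx1 are above 0.

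Side by side, the experiments shared no library, and all 10 genes were tested in both. Of the 7 genes called higher with SETBP1-D868N, 4 were called lower with PF-9363 (57.1%), 1 was called higher (Mecom, 14.3%) and 2 were not called (Hlf and Runx2). Over all 3568 genes called higher with SETBP1-D868N and tested in both, 62.8% were called lower and 16.1% higher. The members thus divided much as all genes did. The genes nearest to Mecom by their pair of log2 fold changes, among 4726 named genes called in both comparisons and reaching a mean of 5 CPM, were Adgrg1 (0.88 with SETBP1-D868N and 0.99 with PF-9363), Trgc1 (1.16 and 0.82) and Prss34 (1.00 and 0.77). Their distances of 0.264, 0.359 and 0.405 log2 units were large beside those of the genes nearest to Prdm16 (Kcnk12, 0.0244), Erg (Tubb4b, 0.0101), Sox4 (Zcchc4, 0.0656) and Etv6 (Ndufaf1, 0.00863). The log2 fold change of Mecom with PF-9363 had an SE of 0.322, and Mecom itself did not reach 5 CPM. Fewer genes also lie in its direction: over all genes tested in both, 576 were called higher in both and 2240 higher then lower. This likeness rests on 2 fold changes per gene and carries no test.

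The order of levels per exonic length was the same in both groups of the first experiment. It ran from Etv6 (30.7 ± 0.226 RPKM with luciferase and 34.1 ± 0.943 with SETBP1-D868N, n = 3) through Runx1, Runx3, Hhex, Erg, Sox4, Runx2, Hlf and Prdm16 to Mecom. Neighbours in that order did not overlap, apart from Runx1 and Runx3 with SETBP1-D868N (20.5 ± 1.07 and 19.2 ± 0.710 RPKM). With DMSO, Erg was at rank 2 with 16.1 ± 2.55 RPKM (n = 4), above Runx3, Hhex and Runx1 (11.2 ± 0.823, 10.7 ± 0.301 and 10.7 ± 0.799), whose ranges overlapped. With PF-9363, Erg was at rank 5 with 8.31 ± 1.27 RPKM, below Runx1 (12.7 ± 0.247), Hhex (11.9 ± 0.685) and Runx3 (10.6 ± 0.530). Of those, Runx1 overlapped Hhex and Hhex overlapped Runx3, while Erg overlapped none. The experiments differ in RNA input (500 and 100 ng), library preparation and depth, so levels were not tested between them.

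Erg and Runx1 belong to a group of 7 factors that bind together at stem cell enhancers, with Gata2, Tal1, Lyl1, Lmo2 and Fli1. With SETBP1-D868N, Gata2 (log2 fold change 0.21), Lyl1 (0.15) and Lmo2 (0.56) were called higher beside Erg, with edgeR adjusted p-values of 3.29e-05, 0.0213 and 3.00e-07, while Tal1 (-0.0020) and Fli1 (0.0091) were not called. With PF-9363 the group divided. Gata2 rose from 56.1 ± 3.55 to 297 ± 24.7 CPM (n = 4, log2 fold change 2.40, SE 0.0709, edgeR adjusted p 5.35e-22) and Tal1 from 15.0 ± 1.99 to 74.4 ± 11.2 CPM (2.305, SE 0.111, edgeR adjusted p 4.66e-16). Lyl1 (-0.35), Lmo2 (-0.63) and Fli1 (-0.20) were called lower along with Erg, with edgeR adjusted p-values of 1.91e-05, 3.58e-08 and 0.0133. The groups overlapped for Fli1. Runx1 was called higher (0.25), though not under library-size scaling.

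Among 25 listed regulators of stem cells, which hold those 5 genes, 24 were tested with SETBP1-D868N, and 17 were called higher and 3 lower (median log2 fold change 0.25, beside 0.0043 over all genes). That is 83.3% called, beside 47.2% of all genes (24.5% higher and 22.7% lower). The largest rises were those of Hoxa9 (4.03) and Meis1 (1.09), a homeobox pair of self-renewal, and of the homeobox gene Nkx2-3 (1.525), which stayed below 1 CPM. Those called lower were Hlx (-0.52), Mycn (-0.45) and Foxo3 (-0.26). With PF-9363, 23 were tested, and 12 were called higher and 8 lower (median 0.34, beside -0.038). That is 87.0% called, beside 76.0% of all genes (36.6% higher and 39.4% lower). After Gata2 and Tal1 the largest rise was that of the polycomb gene Bmi1, from 30.2 ± 2.28 to 120 ± 9.34 CPM (log2 fold change 1.99, edgeR adjusted p 4.68e-19). The largest falls were those of Hoxa9 (-3.37), the progenitor factor Myb (-2.71) and the zinc finger repressor Gfi1 (-2.26).

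**Figure D5:**
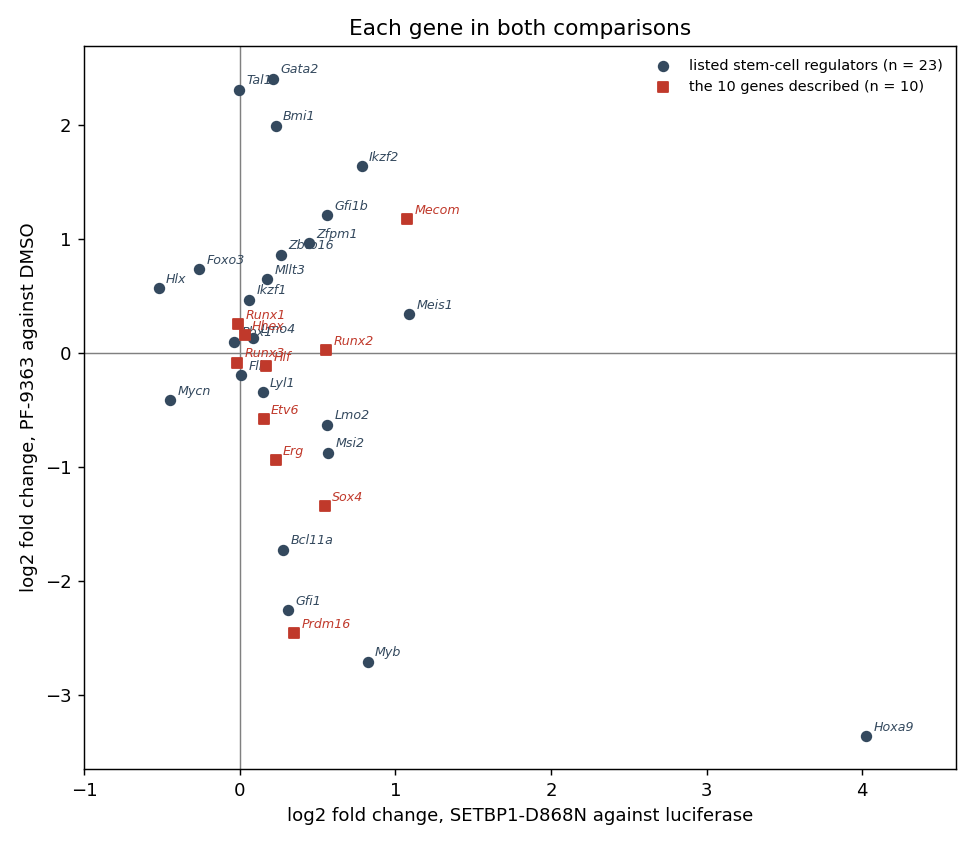
Log2 fold change with SETBP1-D868N against luciferase (horizontal axis) and with PF-9363 against DMSO (vertical axis) for the 10 genes (squares) and the 23 listed stem-cell regulators tested in both (circles). Mecom stands at 1.08 and 1.17, in the upper right, while Prdm16, Sox4, Erg and Etv6 stand to the right of 0 and below it; Hoxa9 is far to the right at 4.03.

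In the same libraries, markers of other cell types moved with PF-9363. Mast cell markers, a list that itself holds Gata2 and Kit, summed to 1137 to 1427 CPM with DMSO and 4678 to 5734 CPM with PF-9363. Of these, 10 of 11 were called higher. The exception was the basophil protease Mcpt8, at 288 to 372 CPM with DMSO and 268 to 327 CPM with PF-9363. Macrophage and monocyte markers went from 1662 to 1893 CPM up to 9225 to 11025 CPM, with 10 of 10 called higher. Neutrophil markers summed to 19122 to 22398 and 16809 to 18271 CPM, with 2 of 10 called higher and 5 lower. That sum hides unlike changes of single markers. Mpo was at 2055 to 2600 CPM with DMSO and 2.49 to 11.6 CPM with PF-9363, whereas S100a9 was at 6664 to 7698 and 6860 to 8524 CPM. The 2 called higher were Ltf (1180 to 1292 and 2432 to 2888 CPM) and Mmp8 (58.9 to 74.7 and 216 to 266 CPM). With SETBP1-D868N, by contrast, macrophage and monocyte markers went from 2543 to 2670 CPM down to 1525 to 1727 CPM, with 10 of 10 called lower. Neutrophil markers divided, with 4 of 10 called higher and 6 lower: Mpo, a gene of early granules, was at 2667 to 2848 CPM with luciferase and 3625 to 3664 CPM with SETBP1-D868N, and S100a9, a gene of later stages, at 7189 to 7340 and 3838 to 4749 CPM. Their sum was 25162 to 26208 CPM with luciferase and 17255 to 19808 CPM with SETBP1-D868N. The mast cell list also divided, with 4 of 11 called higher (Mcpt8, Ms4a2, Hdc and Gata2) and 7 lower. Mcpt8 was at 995 to 1002 CPM with luciferase and 1380 to 1409 CPM with SETBP1-D868N. Tpsb2, a mast cell protease, was at 417 to 489 and 120 to 136 CPM. In these bulk libraries fewer cells of a type and less RNA per cell cannot be told apart, and the part of cell makeup in the changes of the 10 genes was not tested.

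Surface genes of stem and progenitor cells did not move as a block. Of 15 listed, 14 were tested with SETBP1-D868N, with 5 called higher and 5 lower, which is 71.4% called beside 47.2% of all genes. Cd27 (log2 fold change 1.94) and Angpt1 (0.85) led the higher genes, and Ly6a (-1.11), Slamf1 (-0.89) and Kit (-0.66), the receptor for SCF, the lower ones. With PF-9363, 11 were tested, with 6 called higher and 2 lower, which is 72.7% called beside 76.0% of all genes. Procr, a receptor found on stem cells, had the largest fitted rise, from 0.168 ± 0.160 to 2.13 ± 0.639 CPM (log2 fold change 3.60, SE 0.538, edgeR adjusted p 7.61e-07), from very few counts with DMSO. Kit, named above for its fall with SETBP1-D868N, rose from 69.8 ± 5.89 to 191 ± 18.8 CPM (1.45, edgeR adjusted p 3.31e-16). Angpt1, named above for its rise with SETBP1-D868N, rose here as well (1.52, edgeR adjusted p 5.86e-14). Itga2b, an integrin of megakaryocytes and early progenitors, rose from 32.3 ± 3.21 to 203 ± 6.67 CPM (log2 fold change 2.65, edgeR adjusted p 1.40e-22), and Slamf1 rose from 0.474 ± 0.320 to 4.99 ± 1.45 CPM (3.35, edgeR adjusted p 6.75e-09). Flt3, a receptor of lymphoid and myeloid progenitors, fell from 2.66 to 0.703 CPM (-1.86, edgeR adjusted p 1.15e-04).

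Among 21 listed partners and relatives of the 10 genes, 20 were tested with SETBP1-D868N, with 7 called higher and 6 lower (median 0.0040), and 18 with PF-9363, with 9 higher and 3 lower (median 0.34). These are 65% and 66.7% called, beside 47.2% and 76.0% of all genes. Prdm1, a PR domain relative of Mecom and Prdm16, was called lower with SETBP1-D868N (-1.145, edgeR adjusted p 1.45e-04) and higher with PF-9363 (1.99, edgeR adjusted p 2.76e-05). Prdm2, another, was also higher with PF-9363, at 82.6 ± 2.16 and 172 ± 9.19 CPM (1.06, edgeR adjusted p 5.79e-15). Among ETS relatives, Gabpa fell with PF-9363 (-0.72) as Erg and Etv6 did, while Ets2 rose (1.76), with edgeR adjusted p-values of 1.08e-10 and 2.51e-16. Sox12, a close relative of Sox4, was higher with SETBP1-D868N (0.56, edgeR adjusted p 9.18e-05) and was too low to be tested in the second experiment.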

How the data were processed

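Messenger RNA was sequenced in 14 libraries. The 2 deposited tables hold counts by gene symbol, unnormalized whole numbers per the labels and the values. Per the submitters' processing notes, STAR and DESeq2 were used with the build GRCm38 (mm10). The counting program, annotation, strand handling and removal of duplicates are not given in the sources used here. Every column was mapped to a sample by its description, and 0 columns were left out. No pair of libraries of a group held identical counts, and chi-square per degree of freedom was at least 2.28.

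Each table was fitted alone with edgeR 4.0.16 (R 4.3.3): filterByExpr (minimum count 10, minimum total 15), TMM, robust glmQLFit and glmQLFTest on group, Benjamini-Hochberg adjustment over all genes. SE is the absolute log2 fold change over the square root of F. The GENCODE M21 annotation of GRCm38 gave gene positions and exonic lengths (all exons of a gene merged, matched by symbol for 53292 of 55367). In 1 simulated table per comparison, 200 genes were changed 2-fold. Of these, 88.0% were recovered among 15794 genes and 88.5% among 13456, with 10.2% and 2.75% of calls false. The share of 10.2% lies above the adjusted p threshold of 0.05. In the data, 47.2% and 76.0% of genes were called, and most changes of the 10 genes with SETBP1-D868N were below 2-fold. The simulation therefore does not address the TMM condition or smaller changes.

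The 10 genes are all named whatever they showed. From each list at most 3 called genes per direction are named by size. Cbfb, the 5 factors that bind with Erg and Runx1, and Kit and Angpt1 with PF-9363 were named besides, after their values were seen. So were the single cell type markers given with values. The genes and lists were chosen with earlier results of these data known. Same-numbered libraries did not deviate together (r from -0.0968 to 0.00753), so the numbers were not taken as pairs. Alternatives were RLE or library-size scaling, 2 other filters, DESeq2 1.42.0, limma-voom (limma 3.58.1), no robust estimation, a replicate block, and leaving out each library. The values of 1 marker list are not reported here.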

Additional observations from a re-analysis of the deposited data

Results flagged for a closer look

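In the DMSO group, 2 values stood apart from the other 3 libraries by more than the Dixon critical value for 4 libraries, of 26 sets of 4 values examined, where chance alone gives about 1 in 20. Runx2 was at 49.5 CPM in DMSO library 3, against 57.2 to 58.5 CPM in the others. Hhex was at 56.5 CPM in DMSO library 1, against 53.2 to 53.7 CPM in the others. Neither gene was called with PF-9363. Without DMSO library 3 the log2 fold change of Runx2 was -0.0416 in place of 0.020.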

How the results depend on the processing

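The counts of the 10 genes called higher with SETBP1-D868N ranged from 6 to 7 over the other settings and from 5 to 6 with 1 library left out. The count called lower stayed at 0. With PF-9363 the count called higher ranged from 1 to 3: it was 1 under library-size scaling and 3 with RLE size factors, with DESeq2 or without PF-9363 3, and the count called lower ranged from 4 to 6. The calls of Mecom, Erg, Runx2, Sox4 and Etv6 with SETBP1-D868N, and of Mecom, Prdm16, Erg, Sox4 and Etv6 with PF-9363, held in every alternative run. Mecom ranged from 0.926 to 1.17 and from 0.942 to 1.26, and Prdm16 with PF-9363 from -2.69 to -2.20. Signs changed only for genes not called in the main fit. With SETBP1-D868N these were Runx1 under library-size scaling (0.0402) or without luciferase 1 (0.00702) or SETBP1-D868N 1 (0.0262), and Runx3 under library-size scaling (0.0311) or without SETBP1-D868N 2 (0.00704). With PF-9363 they were Runx2 under library-size scaling (-0.21), with every gene of at least 1 count (-0.00187), or without DMSO 3 (-0.0416) or PF-9363 2 (-0.00624), Hhex under library-size scaling (-0.0787), and Hlf without DMSO 4 (0.035). Under library-size scaling Runx2 was called lower (edgeR adjusted p 0.0239). The cause was not tested. With 1 library left out, these ranged from -0.0476 to 0.0262 (Runx1) and -0.0392 to 0.00704 (Runx3) with SETBP1-D868N, and from -0.0416 to 0.0586 (Runx2) and -0.238 to 0.035 (Hlf) with PF-9363. The Runx1 share of the RUNX sum changed by 0.146 points with SETBP1-D868N when taken over Runx1 and Runx3 alone, in place of -1.38. With PF-9363 it changed by 5.78 points in that setting (exact permutation p 0.0571), and by 4.33 to 5.91 with 1 library left out, where 3 PF-9363 libraries against 4 reached p 0.0571. The replicate block gave 6 genes higher and 0 lower with SETBP1-D868N, and 2 and 4 with PF-9363, and changed the call of Hlf alone (log2 fold change 0.173). Depth limits Mecom, Prdm16 and Hlf in the second experiment, with 4 to 57 counts per library.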

Other observations

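Levels of genes on the strand opposite to Runx1 and Etv6 were low in the first experiment and higher in the other. Gm26626, which lies antisense to Runx1 and overlaps 0.881% of its exons, ranged from 0.0447 to 0.169 CPM with luciferase or SETBP1-D868N and from 8.24 to 13.1 CPM with DMSO or PF-9363. Gm17089, antisense to Etv6, was at 0.0457 to 0.104 CPM and at 5.67 to 9.88 CPM. Over all 2837 genes annotated as antisense, the share of counts was 0.0957% to 0.104% in the libraries of the first experiment. It was 1.58% to 1.61% with DMSO and 1.41% to 1.43% with PF-9363. The cause was not tested, and RNA input and library preparation differed between the experiments. Gm17089 was lower with PF-9363 (5.67 to 6.49 CPM) than with DMSO (7.87 to 9.88 CPM), as was Etv6.

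Nkg7, a granule gene of cytotoxic cells, was at 35.4 to 47.9 CPM with DMSO and at 1.08 to 2.06 CPM with PF-9363. It was the only 1 of 3 listed NK cell markers that could be tested there and was called lower; Ncr1 had at most 1 count with DMSO and 7 with PF-9363, and Klrb1c had 0. Of 7 listed megakaryocyte markers, 4 were tested with PF-9363, and 3 were called higher and 1 lower. Vwf was at 23.9 to 44.7 CPM with DMSO and 196 to 250 CPM with PF-9363, whereas Ppbp was at 4.99 to 9.98 and 3.81 to 4.66 CPM.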
